A study of Mus musculus with 2 samples.

Results

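The genes Ifitm1, Ifitm2, Ifitm3 and Ifitm6 encode interferon-induced transmembrane proteins, and their RNA was followed through E-cadherin+ bone marrow cells of the mouse. The 4 genes were chosen by symbol, and each was found once among the 31053 features of both count matrices. They were 4 of 7 genes of the Ifitm family listed there, the other 3 being Ifitm5, Ifitm7 and Ifitm10. Each gene was measured by sort and in cells gated on the RNA of a lineage marker, Mcpt8, S100a8 or Csf1r.

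IFITM proteins are small membrane proteins of the plasma membrane and of endosomes. They hinder the fusion of enveloped viruses with the membranes of the cell, and interferons raise the transcription of several family members. Ifitm1, Ifitm2 and Ifitm3 are the members best known for this antiviral restriction. Ifitm5 is known from osteoblasts. Type I and type II interferons act through the receptors Ifnar1/Ifnar2 and Ifngr1/Ifngr2 and the kinases Jak1, Jak2 and Tyk2, which switch on transcription factors that bind promoter elements called ISRE and GAS.

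Bone marrow of FVB mice, as the labels give the strain, was sorted by 2 surface proteins into E-cadherin+ cells with cKIT (E-cadherin+cKIT+) and E-cadherin+ cells without it (E-cadherin+cKIT-), where cKIT is the receptor of stem cell factor. The cells came from 3 mice, and which mouse gave which cell is not recorded in the files used here. The genotype is given as wild-type in one place of the study and as VaviCre; mTmG in another, a reporter line in which Cre acts in blood cells. The labels give both sorts the same strain and name no treatment. Each sort was 1 single-cell library, so no difference between the sorts has a replicate. No test was therefore made, and the 95% intervals below (exact Poisson for sums, exact binomial for shares and for ratios of sums) cover counting error only. Levels are in CPM, the usual unit in which the UMIs (tagged molecules) of a gene are scaled to the total of a group of cells. The kit tags 1 end of each RNA, so levels of different genes were compared without dividing by length. After filtering, 6479 cKIT+ cells with a median of 13039 UMIs and 3662 cKIT- cells with a median of 4416.5 UMIs were kept. Their UMIs summed to 91108781 and 22869169. The libraries shared 10 cell barcodes. Kit RNA was at 37.1 and 0.875 CPM in the cKIT+ and cKIT- libraries, and RNA of Cdh1, which encodes E-cadherin, at 62.8 and 193 CPM.

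The 4 genes lie together on mouse chromosome 7. In GENCODE release M21 (GRCm38) they span 63088 bp, from 140954837 to 141017924, in the order Ifitm2 (140954837 to 140955987, minus strand), Ifitm1 (140967221 to 140969825, plus strand), Ifitm3 (141009586 to 141010770, minus strand) and Ifitm6 (141015699 to 141017924, minus strand). No other protein-coding gene lies inside this span, which also holds the processed pseudogene Gm7514. Ifitm5 is close by (140948958 to 140950291), Ifitm10 is on the same chromosome (142325837 to 142373753) and Ifitm7 is on chromosome 16 (13981699 to 13986888). The members resemble each other in sequence, which matters for reads of 56 bases. The transcripts of Ifitm2 and Ifitm3 were 84.9% identical over 358 aligned bases and shared 14 windows of 56 bases, of 600 and 623. Ifitm1 and Ifitm3 shared 9 such windows, whereas Ifitm6 shared none with the other three. A read that falls in a shared window cannot be given to 1 gene, so levels of Ifitm1, Ifitm2 and Ifitm3 carry that uncertainty. Its size was not measured, as the place of these windows in the transcripts was not compared with the place of the reads.

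The promoters of the 4 genes were read from RefSeq (GRCm38.p6), as 250 bases before to 50 bases after the start of transcription, and are shown so that the interferon elements in these windows can be set side by side. One start per gene was read, and other annotated starts were not searched, while Ifitm1 and Ifitm6 have 3 transcripts each in GENCODE. Capitals mark matches to the ISRE letters, which are GAAA, any 2 bases and GAAA again, searched on both strands. Each promoter is written 5' to 3' on the strand of its gene, with its place given after the name.
Ifitm1, plus strand of chr7:140967826-140968125: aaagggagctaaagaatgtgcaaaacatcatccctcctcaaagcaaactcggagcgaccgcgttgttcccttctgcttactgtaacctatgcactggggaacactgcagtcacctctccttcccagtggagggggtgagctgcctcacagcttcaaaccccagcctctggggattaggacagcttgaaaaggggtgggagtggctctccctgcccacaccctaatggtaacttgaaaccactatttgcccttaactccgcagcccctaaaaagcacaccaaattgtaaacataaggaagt
Ifitm2, minus strand of chr7:140955912-140956211: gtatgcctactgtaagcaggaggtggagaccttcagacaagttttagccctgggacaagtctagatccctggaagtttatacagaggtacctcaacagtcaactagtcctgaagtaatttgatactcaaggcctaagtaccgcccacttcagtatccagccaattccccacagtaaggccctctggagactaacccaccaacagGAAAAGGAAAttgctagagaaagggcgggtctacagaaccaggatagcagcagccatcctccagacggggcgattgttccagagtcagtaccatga
Ifitm3, minus strand of chr7:141010695-141010994: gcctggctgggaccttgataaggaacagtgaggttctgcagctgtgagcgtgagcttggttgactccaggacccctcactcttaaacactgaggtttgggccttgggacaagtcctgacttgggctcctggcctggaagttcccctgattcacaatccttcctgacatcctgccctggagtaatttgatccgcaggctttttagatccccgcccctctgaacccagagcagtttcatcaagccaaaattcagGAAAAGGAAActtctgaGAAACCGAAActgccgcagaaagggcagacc
Ifitm6, minus strand of chr7:141016843-141017142: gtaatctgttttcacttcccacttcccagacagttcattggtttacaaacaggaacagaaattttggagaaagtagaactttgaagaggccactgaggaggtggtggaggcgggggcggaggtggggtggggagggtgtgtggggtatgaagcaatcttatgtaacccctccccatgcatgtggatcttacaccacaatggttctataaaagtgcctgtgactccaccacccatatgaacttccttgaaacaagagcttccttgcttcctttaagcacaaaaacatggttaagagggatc

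The Ifitm3 window held 2 ISRE matches, with their first bases at positions 3 and 20, counted from 1 at the first transcribed base. The Ifitm2 window held 1, with its first base at position -46. No match was found in the windows of Ifitm1 and Ifitm6. Of all 32851 RefSeq promoters of this length, 3.44% held at least 1 ISRE match. The GAS letters TTCNNNGAA were matched once in Ifitm3 and once in Ifitm6, against 8.30% of all promoters. The GAS match of Ifitm3 began at position 14 and overlapped the second of its ISRE matches. The letters AGATAA or TGATAA, which GATA factors bind, were matched once in Ifitm3, against 18.6% of promoters. Neither the PU.1 letters GAGGAAGT (3.20% of promoters) nor the C/EBP letters TTGCNNAA (10.8%) were found in the 4 windows. A match describes these letters and does not show that a factor was bound.

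Ifitm1 and Ifitm2 carried most of the family's RNA in both sorts. Over all kept cells, Ifitm1 was at 1355 CPM (1347 to 1362) in the cKIT+ library, against 2084 CPM (2065 to 2103) in the cKIT- library. Ifitm2 was at 823 CPM and 969 CPM. The other two were lower, with Ifitm3 at 122 CPM and 172 CPM. Ifitm6 was at 80.4 CPM and 44.7 CPM, the only one of the 4 that was lower in the cKIT- library. Of the UMIs of the 4 genes, Ifitm1 made up 56.9% and 63.7%, Ifitm2 34.6% and 29.6%, Ifitm3 5.13% and 5.26%, and Ifitm6 3.38% and 1.37%, in the cKIT+ and the cKIT- library.

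The ratio of the cKIT- over the cKIT+ library was 1.54 (1.52 to 1.55) for Ifitm1, 1.18 (1.16 to 1.19) for Ifitm2, 1.41 (1.36 to 1.46) for Ifitm3 and 0.556 (0.520 to 0.594) for Ifitm6. None of the 4 reached 2-fold. Among 3224 genes that reached 50 CPM in a library, 17.6% were past 2-fold. For Ifitm1 and Ifitm6 this call depended on how cells were weighed. With the CPM averaged over cells, so that shallow and deep cells count alike, the ratios became 2.02 and 0.326. Per cell, without scaling to depth, cKIT- cells held fewer UMIs of all 4 genes, with ratios of 0.683, 0.522, 0.625 and 0.247 in the order above. The cells also held fewer UMIs over all genes, with medians of 4416.5 in the cKIT- and 13039 in the cKIT+ library. The part of sequencing depth in the per-cell ratios was not tested.

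The other Ifitm genes were near 0. Ifitm7 had 272 UMIs in the cKIT+ library, against 6 in the cKIT- library, Ifitm10 had 60 and 28, and Ifitm5 had 41 and 16. Of the 272 Ifitm7 UMIs, 150 were in cells gated on Elane, the gene of neutrophil elastase, where its level was 13.6 CPM.

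Cells were gated on the RNA of lineage markers, with at least 2 UMIs and a minimum CPM of the marker in each cell. The gates were Mcpt8 at 2000 CPM (a basophil protease), S100a8 at 5000 CPM (a calprotectin subunit abundant in neutrophils) and Csf1r at 200 CPM (the receptor of macrophage colony-stimulating factor, found on monocytes and macrophages), and cells that passed more than 1 of these were left out. Mcpt8-gated cells numbered 3506 and 2659 in the cKIT+ and cKIT- libraries, S100a8-gated cells 496 and 62, and Csf1r-gated cells 90 and 32. At 20 CPM or more, 9 and 10 of 10 basophil markers were on in Mcpt8-gated cells, 10 of 10 neutrophil markers in S100a8-gated cells and 10 of 10 monocyte markers in Csf1r-gated cells, in both libraries. Each list holds its gate gene, and other lineages' markers were on too. Mcpt8-gated cKIT+ cells had 5 of 5 granulocyte/monocyte progenitor (summed 9108 CPM), 5 of 10 neutrophil and 4 of 6 eosinophil markers on. S100a8-gated cKIT+ cells had 6 of 10 basophil and 5 of 5 such progenitor markers on (summed 18921 CPM). Csf1r-gated cells also had 6 of 6 macrophage and 4 of 5 dendritic cell markers on, so the gate held more than monocytes. Cells that passed more than 1 gate numbered 74 and 5, and the 74 had a median of 22913.5 UMIs. Doublets were not called.

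The 3 gates differed in which member led. Over each gate as a whole, Ifitm1 led in Mcpt8-gated cells, Ifitm6 in S100a8-gated cells and Ifitm3 in Csf1r-gated cells, in both libraries. Ifitm1 made up 60.1% of the family's UMIs in Mcpt8-gated cKIT+ cells and 61.9% in cKIT- cells. Ifitm6 made up 57.2% and 67.8% in S100a8-gated cells, and Ifitm3 59.6% and 64.9% in Csf1r-gated cells. Ifitm2 was never the leader over a whole gate and stood between 14.1% and 36.2%. In cKIT+ cells it did stand above the gate's leader in a class inside the S100a8 gate and in one inside the Csf1r gate, as given below. It stood close to Ifitm1 in a cKIT- class inside the Mcpt8 gate.

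**Figure D1:**
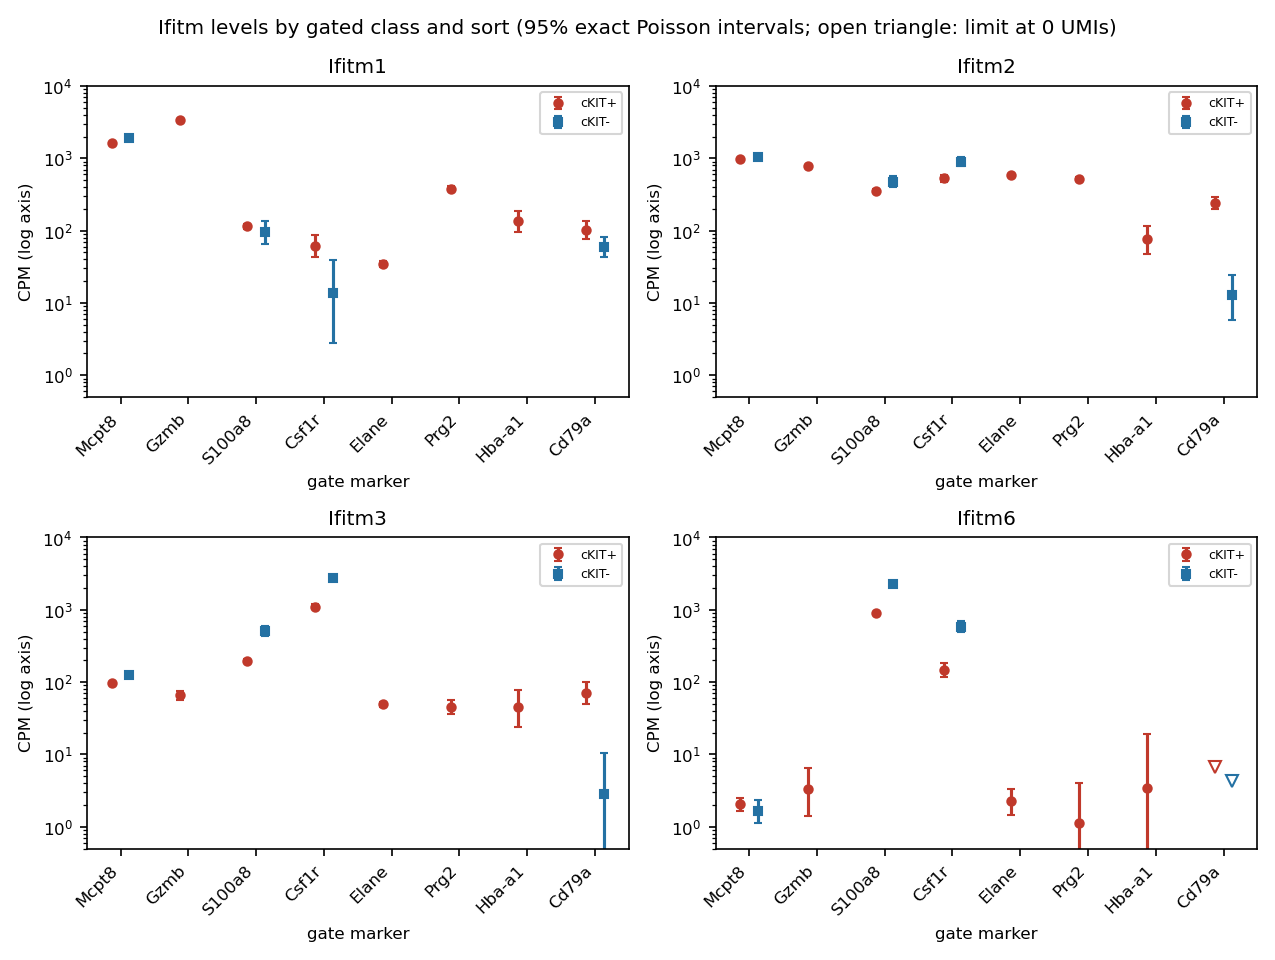
Level of each member in CPM on a log axis (y) by the marker on which cells were gated (x), for the cKIT+ library (circles) and the cKIT- library (squares), with exact Poisson intervals at 95% for counting error. Classes with under 30 cells in a library are left out, and open triangles give the limit that 0 UMIs allow. Ifitm1 stands between 1628 and 3418 CPM in Mcpt8- and Gzmb-gated cells, Ifitm3 is highest in Csf1r-gated cells and Ifitm6 in S100a8-gated cells, while Ifitm2 stays within 359 and 1041 CPM in all classes but the Hba-a1- and Cd79a-gated ones.

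Of these 3 gates, Ifitm1 was highest in the basophil gate. In Mcpt8-gated cells it was at 1628 CPM (1617 to 1639) in the cKIT+ library, against 1903 CPM (1883 to 1922) in the cKIT- library. In S100a8-gated cells it was at 114 CPM and 95.6 CPM, which was 14.2 times lower (13.3 to 15.3) and 19.9 times lower (13.9 to 29.5). In Csf1r-gated cells it was at 61.9 CPM and 13.6 CPM, the latter from 3 UMIs in 32 cells. The few Ifitm1 UMIs of S100a8-gated cells were uneven. The 10 cells with most of them held 72.2% of 780 UMIs in the cKIT+ library, the highest cell held 103, and the median cell held 0. Mcpt8 itself was at 157 CPM in S100a8-gated and 96.3 CPM in Csf1r-gated cKIT+ cells, and the part of basophil RNA in these Ifitm1 counts was not tested.

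Ifitm2 differed least between the gates. It was at 980.3 CPM and 1041 CPM in Mcpt8-gated cells, at 359 CPM and 478 CPM in S100a8-gated cells, and at 533 CPM and 895 CPM in Csf1r-gated cells. S100a8-gated cells were lower than Mcpt8-gated cells by 2.73 times (2.62 to 2.85) in the cKIT+ library, against 2.18 times (1.85 to 2.57) in the cKIT- library. Csf1r-gated cells were 1.84 times lower (1.64 to 2.06) and 1.16 times lower (1.01 to 1.34). At least 1 Ifitm2 UMI was found in 96.8% of Mcpt8-gated, 79.2% of S100a8-gated and 78.9% of Csf1r-gated cKIT+ cells, whose median totals were 13946, 12631.5 and 5836.5 UMIs. With 2000 UMIs drawn from each cell the shares were 82.8%, 43.9% (39.4% to 48.6%) and 52.4% (41.2% to 63.4%), against 6.82% (1.43% to 18.7%) of 44 erythroid cells gated on Hba-a1, so the order of the S100a8 and Csf1r gates is not given by the unthinned shares.

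Ifitm3 was highest in the Csf1r gate. It was at 1097 CPM (1014 to 1186) there in the cKIT+ library, against 2760.5 CPM (2546 to 2988) in the cKIT- library. In Mcpt8-gated cells it was at 97.7 CPM and 127 CPM, so the Csf1r gate was 11.2 times higher (10.3 to 12.2) and 21.8 times higher (19.9 to 23.8). In S100a8-gated cells it was at 198 CPM and 516 CPM, which was 2.03 times (1.91 to 2.15) and 4.07 times (3.45 to 4.78) the level of Mcpt8-gated cells. The first of these stood at the 2-fold limit and was 1.77 with the gate thresholds halved and 1.91 per cell without scaling.

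Ifitm6 was close to absent from the basophil gate. In Mcpt8-gated cells it had 105 UMIs in 3506 cKIT+ cells and 32 UMIs in 2659 cKIT- cells, or 2.05 CPM and 1.64 CPM. In S100a8-gated cells it was at 899 CPM (877 to 922) and 2297 CPM (2132 to 2470.6). These levels were 439 times (362 to 538) and 1403 times (985 to 2066) those of Mcpt8-gated cells. In Csf1r-gated cells it was at 148 CPM and 587 CPM, which was 72.2 and 359 times the level of Mcpt8-gated cells. S100a8 RNA itself was found at 58.3 CPM in Mcpt8-gated cKIT+ cells and 8.95 CPM in cKIT- cells, against 94346 CPM and 150053 CPM in its own gate, and the part of free RNA in the Ifitm6 counts of basophils was not tested. Of all Ifitm6 UMIs, 83.6% of the cKIT+ library lay in S100a8-gated cells, which were 7.66% of its cells. In the cKIT- library the share was 70.5%, from 1.69% of the cells.

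Set against all genes, all 4 members were past 2-fold between the S100a8 and the Mcpt8 gate in both libraries, 2 higher and 2 lower. In the cKIT+ library 26.7% of 3007 genes with at least 50 CPM were past 2-fold, and in the cKIT- library 65.7% of 3218. The median log2 ratio over all genes was -0.46 and -1.09, and the 10 neutrophil markers alone summed to 305242 CPM and 484106 CPM in S100a8-gated cells. The cKIT- Ifitm2 ratio of 0.459 was thus close to the median over all genes. Scaling by TMM, which adjusts for such genes, moved the 4 cKIT+ ratios to 0.0933, 0.485, 2.69 and 582 and the 4 cKIT- ratios to 0.0838, 0.766, 6.80 and 2341, in the order Ifitm1, Ifitm2, Ifitm3 and Ifitm6. The directions were the same, but Ifitm2 in the cKIT- library was no longer past 2-fold. Between the Csf1r and the Mcpt8 gate, 3 of 4 members were past 2-fold in each library, Ifitm3 and Ifitm6 higher and Ifitm1 lower. The background was 43.7% of 3719 genes in the cKIT+ library, against 39.9% of 3797 in the cKIT- library. Ifitm2 was the exception, at a ratio of 0.544 in the cKIT+ library that became 0.467, past 2-fold, under TMM.

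**Figure D2:**
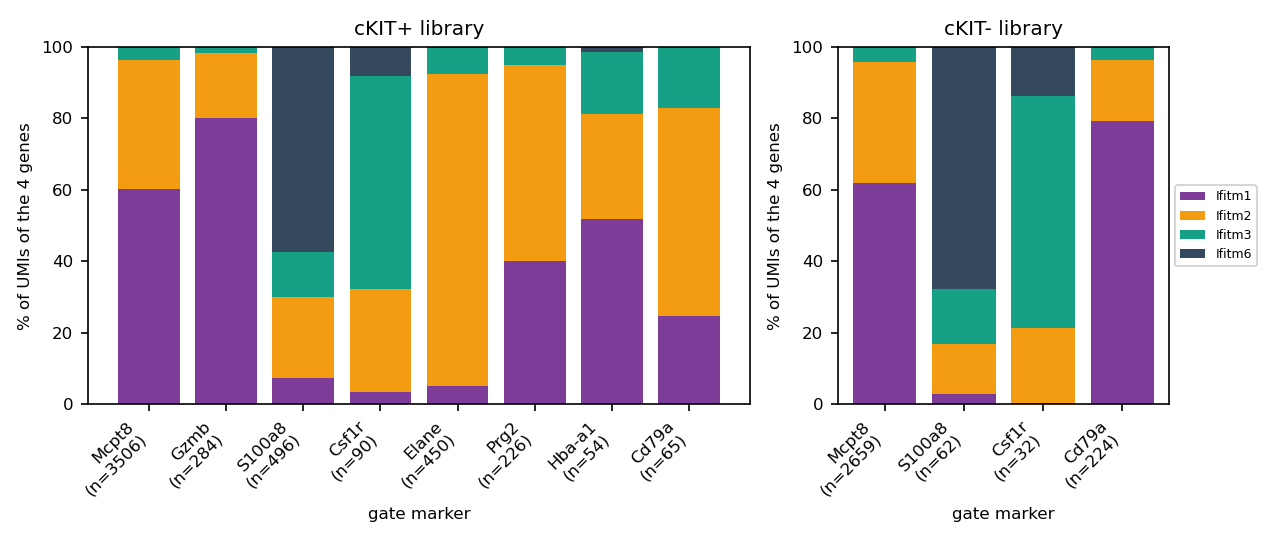
Share of the UMIs of the 4 genes (y, percent) that belonged to each, by gate (x, with the number of cells), for the cKIT+ library (left) and the cKIT- library (right). The leading gene was Ifitm1 in Mcpt8-gated, Ifitm6 in S100a8-gated and Ifitm3 in Csf1r-gated cells of both libraries, and Ifitm2 in the Elane-, Prg2- and Cd79a-gated cells of the cKIT+ library.

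Shares of cells with a UMI were set to equal depth by drawing 2000 UMIs from each cell and leaving out shallower ones. At that depth an Ifitm1 UMI was found in 75.6% of 3410 Mcpt8-gated cKIT+ cells and 72.9% of 2596 cKIT- cells, against 93.4% and 87.1% unthinned. In Hba-a1-gated cKIT+ cells, which are erythroid cells and serve as background, it was found in 13.6% (5.17% to 27.4%) of 44 cells. The Ifitm1 shares of S100a8-gated (8.44%) and Csf1r-gated (7.14%) cKIT+ cells lie inside that interval and are not told apart from background. Ifitm3 was found in 61.9% of 84 Csf1r-gated cells, 32.5% of 462 S100a8-gated cells and 15.9% of Mcpt8-gated cells of the cKIT+ library, against 6.82% (1.43% to 18.7%) of the Hba-a1-gated cells. This interval holds the Mcpt8-gated cKIT+ share, so the shares at this depth do not tell it apart from background. In CPM over all their UMIs, Hba-a1-gated cells had 0.459 times (0.244 to 0.786) the Ifitm3 of Mcpt8-gated cKIT+ cells, from 13 UMIs. In the cKIT- library these Ifitm3 shares were 90.3% of 31 cells, 56.1% of 57 cells and 22.2%. Ifitm6 was found in 56.9% and 77.2% of S100a8-gated cells, and in 0.323% (0.161% to 0.576%) and 0.308% (0.133% to 0.606%) of Mcpt8-gated cells. It was found in 1 of 44 Hba-a1-gated cells, or 2.27% with an interval of 0.0575% to 12.02% that holds both, so the Mcpt8-gated shares are not told apart from background. Cells left out as too shallow were 96 and 63 of the Mcpt8 gate, 34 and 5 of the S100a8 gate, 6 and 1 of the Csf1r gate and 10 of the Hba-a1 gate.

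Over the whole Mcpt8 gate, whose classes are given below, the sorts differed by less than 2-fold. The ratio of cKIT- over cKIT+ cells was 1.17 (1.15 to 1.18) for Ifitm1, 1.06 (1.04 to 1.08) for Ifitm2 and 1.30 (1.23 to 1.36) for Ifitm3, and 0 of these 3 were past 2-fold, against 11.7% of 3133 genes. Ifitm6 was below 50 CPM in both and was not counted. With each cell thinned to 2000 UMIs the ratio of Ifitm1 was 1.49. Per cell, without scaling, the ratios were 0.587, 0.534 and 0.652, below 1 for all 3 genes. The median totals of these cells were 6248 UMIs in the cKIT- and 13946 in the cKIT+ library.

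These gated basophils were divided by Prss34, a protease of maturing basophils, at 10000 CPM, and by cycling, as at least 2 UMIs and 200 CPM of Mki67, Top2a, Ube2c and Cdk1 together. In CPM, Ifitm1 was highest in Prss34-low cells that were not cycling. It was at 2457 CPM (2421 to 2492) over 711 cKIT+ cells and 5640 CPM (5546 to 5735) over 719 cKIT- cells, which differ in other markers, as given below. It was lowest in Prss34-high cycling cells, at 1269 CPM over 1460 cells of the cKIT+ sort and 1023 CPM over 1028 of the cKIT- sort. Prss34-high cells that were not cycling stood between, at 1801 CPM in 645 and 2011 CPM in 901 cells. Prss34-low cycling cells were at 1731 CPM in 690 cKIT+ cells, and at 1637 CPM in the 11 cKIT- cells of that class. The sort ratio of Ifitm1 CPM turned between classes. It was 0.806 (0.789 to 0.824) in Prss34-high cycling, 1.12 (1.09 to 1.14) in Prss34-high non-cycling and 2.30 (2.25 to 2.35) in Prss34-low non-cycling cells. The ratio of 1.17 over the whole gate pools these classes, whose numbers of cells differ between the sorts.

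The classes lay closer together in Ifitm1 molecules per cell than in CPM, from 11.02 to 19.1 UMIs per cell over the cKIT- classes. Among cells that were not cycling, Prss34-low cKIT- cells had 2.80 times (2.74 to 2.87) the Ifitm1 CPM of Prss34-high cells, and 1.45 times the UMIs per cell, at 19.1 against 13.2. Their median total was 3291 UMIs against 5810. In the cKIT+ library the 2 ratios were 1.36 and 1.30. The order of the cKIT+ Prss34-low classes turned, since cycling cells had 0.705 times the Ifitm1 CPM of non-cycling cells but 1.19 times the UMIs per cell, at 30.9 against 26.0. Between cycling and non-cycling Prss34-high cells, the CPM ratio was 0.705 in the cKIT+ and 0.509 in the cKIT- library, and the ratio of UMIs per cell 1.06 and 0.833. Cycling Prss34-high cells had a higher total, with a median of 16227.5 against 11025 UMIs among cKIT+ cells and 10563 against 5810 UMIs among cKIT- cells.

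**Figure D3:**
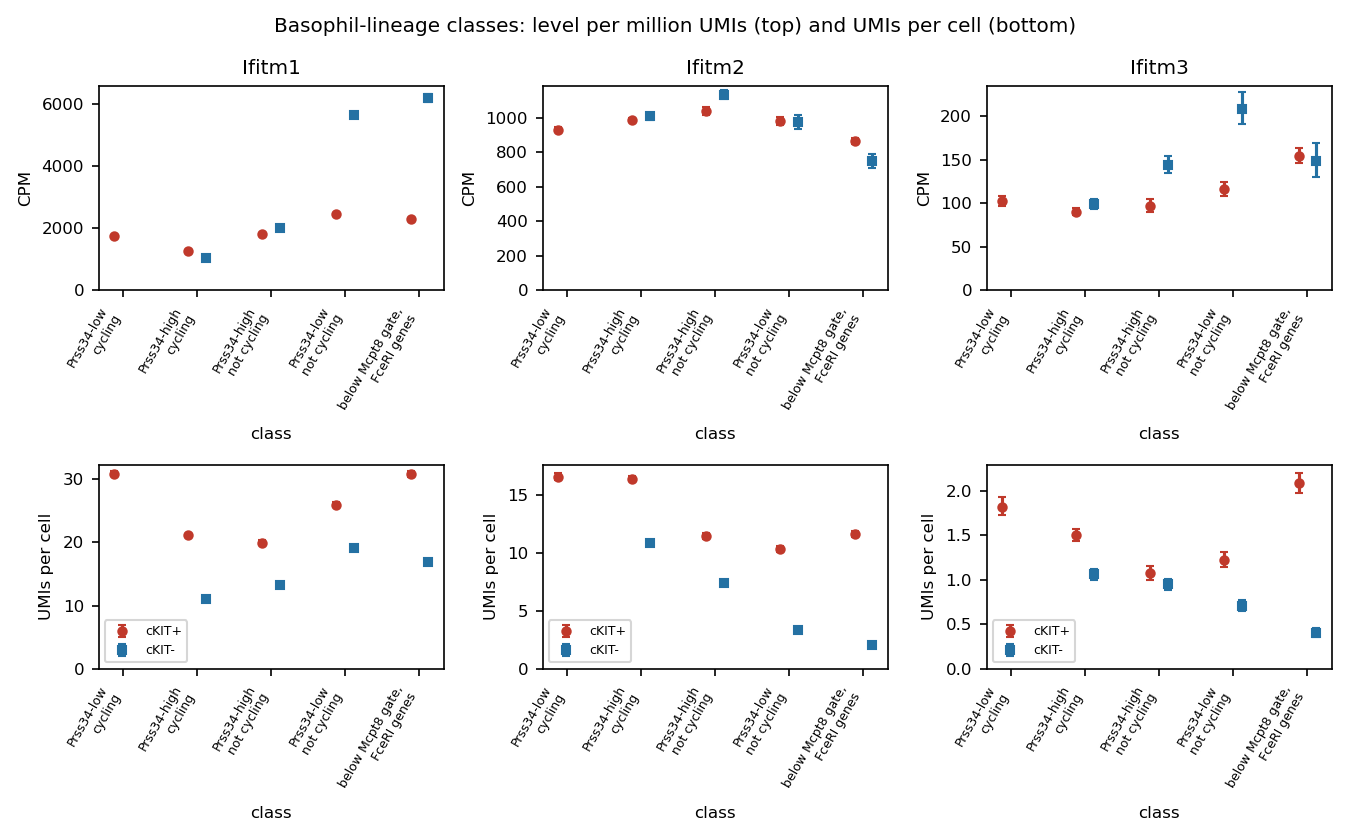
Level of Ifitm1, Ifitm2 and Ifitm3 (columns) in CPM (top) and in UMIs per cell (bottom) across 4 classes of Mcpt8-gated cells and the cells below the Mcpt8 gate with Fc epsilon receptor genes (x), by library, with exact Poisson intervals at 95%. Classes with under 50 cells are left out. Ifitm1 reaches 5640 and 6193 CPM in the last 2 classes of the cKIT- library but stays at 19.1 and 16.8 UMIs per cell there, and Ifitm2 CPM stays between 747 and 1133.

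A further group of cells with basophil receptor genes lay below the Mcpt8 gate. It was gated, after its values were seen, on 500 CPM and 2 UMIs of Fcer1a, Ms4a2 and Cd200r3 together, the first 2 of which encode chains of the high-affinity IgE receptor. It held 655 cKIT+ and 601 cKIT- cells that passed none of the other gates, with 8 and 10 of 10 basophil markers on, 3 of which are the genes of this gate. Ifitm1 was at 2282 CPM and 6193 CPM (6072 to 6314) in them, the latter the highest level of any class with at least 50 cells. Ifitm2 was at 864 CPM and 747 CPM, Ifitm3 at 154 CPM and 149 CPM, and Ifitm6 at 2.15 CPM and 2.45 CPM. With these cells added to the Mcpt8 gate the sort ratio of Ifitm1 was 1.30. These cells were shallow in the cKIT- library, with a median of 2716 UMIs.

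Ifitm2 and Ifitm3 followed other orders in the basophil classes. Ifitm2 was at 931 to 1039.8 CPM in the 4 cKIT+ classes and at 885 to 1133 CPM in the 4 cKIT- classes. In Prss34-high cycling cKIT- cells it was close to Ifitm1, at 1007 CPM against 1023 CPM. Their order there changed with depth. Ifitm2 was at 1018 CPM against 1042 CPM with 2000 UMIs drawn from each cell, and at 1053.5 CPM against 1033 CPM with 1000 drawn. Ifitm3 was at 90.2 to 116 CPM in the cKIT+ classes. In cKIT- cells it was at 98.5 CPM in Prss34-high cycling, 144 CPM in Prss34-high non-cycling and 209 CPM (191 to 228) in Prss34-low non-cycling cells. The sort ratio of the last class was 1.80 (1.61 to 2.01) for Ifitm3, 2.30 (2.25 to 2.35) for Ifitm1 and 0.994 (0.949 to 1.04) for Ifitm2. In UMIs per cell these ratios were 0.579, 0.737 and 0.319, all below 1, with median totals of 3291 UMIs in cKIT- and 10712 in cKIT+ cells. The cells of this class were not of 1 kind in the sorts. Their granulocyte/monocyte progenitor markers summed to 8622 CPM in cKIT+ and 641 CPM in cKIT- cells, and their eosinophil markers to 1226 CPM and 8.20 CPM. The basophil markers had similar sums, 18763 CPM and 17892 CPM, but 8 and 10 of 10 were on at 20 CPM or more. These sums include Mcpt8 and Prss34, by which the class was gated.

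S100a8-gated cells were divided by Ngp, the gene of neutrophilic granule protein, at 1000 CPM. Ifitm6 was at 36.8 CPM (28.8 to 46.3) in the 117 Ngp-low and 1247 CPM (1215 to 1278) in the 379 Ngp-high cKIT+ cells, 33.9 times higher (26.9 to 43.4) in the latter. Ifitm3 was 4.29 times higher (3.54 to 5.24), at 59.2 CPM and 254 CPM. Ifitm2 went the other way, at 532 CPM and 289 CPM, or 1.84 times lower in Ngp-high cells. In the cKIT- library, with 28 and 34 cells, Ifitm6 was at 807 CPM and 2800.1 CPM, a ratio of 3.47 (2.68 to 4.56), and Ifitm2 at 933 CPM and 324 CPM. Ifitm3 there was at 504 CPM and 520 CPM, with a ratio interval of 0.716 to 1.51. In Ngp-low cells Ifitm2 was the highest of the 4 members in the cKIT+ library. In the cKIT- library it had 74 UMIs against 64 of Ifitm6, and their order is not settled. Ifitm2 was at 674 CPM against 783 CPM of Ifitm6 with 2000 UMIs drawn from each of 23 cells. With 1000 drawn from each of 28 cells, it was at 929 CPM against 679 CPM. The Ngp-low cells were not alike in the sorts. Those of the cKIT+ library held the granulocyte/monocyte progenitor markers (Elane, Mpo, Prtn3, Ctsg and Ms4a3) at a summed 51036 CPM, those of the cKIT- library at 12.6 CPM. Over the whole S100a8 gate the cKIT- library was 2.60 times (2.20 to 3.07) higher in Ifitm3 CPM and 2.55 times (2.36 to 2.76) higher in Ifitm6 CPM, but the UMIs per cell had ratios of 0.960 and 0.942.

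Csf1r-gated cells were divided by C1qa (a complement gene of macrophages, at 500 CPM), then H2-Aa (an MHC class II gene, at 500 CPM), then the rest. Ifitm3 was lowest with C1qa, at 264 CPM (212 to 324) in 49 cKIT+ cells. With 2000 UMIs drawn from each cell, Ifitm2 stood above Ifitm3 in this class, at 326 CPM and 196 CPM over 46 cells. Ifitm3 was at 1515 CPM (1316 to 1735) in the 19 cKIT+ cells with H2-Aa and at 3328 CPM (2983 to 3701) in the remaining 22. In the cKIT- library it was at 3046 CPM in 10 cells with H2-Aa and 2835 CPM in the remaining 19, and the 3 cells with C1qa were too few to describe. Ifitm6 followed the same order in the cKIT+ library, at 5.86 CPM, 167 CPM and 599 CPM, and was at 422 CPM and 741 CPM in the cKIT- classes. The sort ratios of the whole Csf1r gate, 2.52 for Ifitm3 and 3.97 for Ifitm6, compare unlike mixtures, as C1qa cells were 49 of 90 in one library and 3 of 32 in the other. Of the remaining cells every one held an Ifitm3 UMI, 22 of 22 and 19 of 19, with a median of 16 and 21 UMIs.

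**Figure D4:**
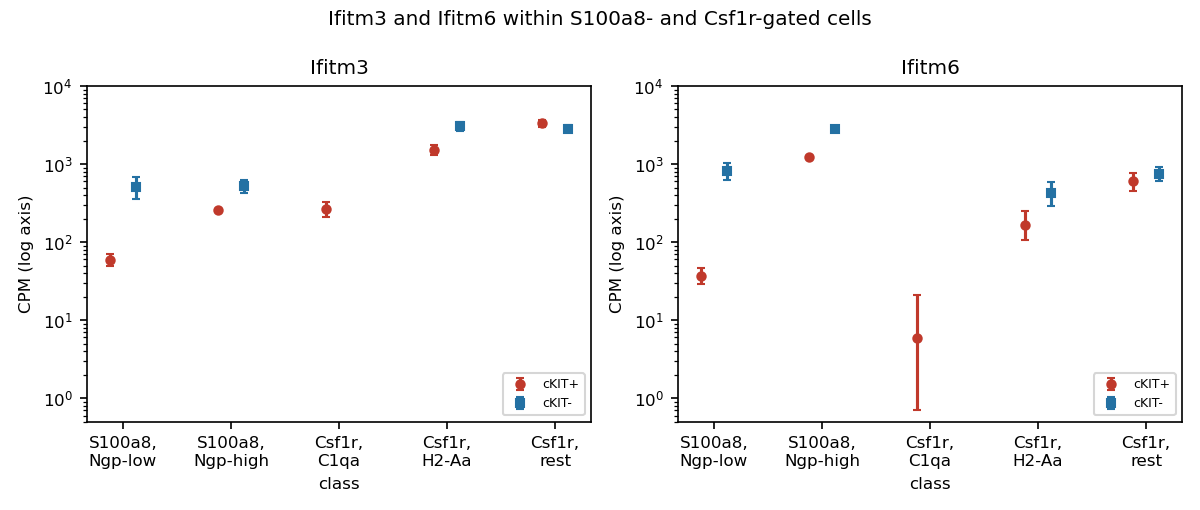
Level of Ifitm3 (left) and Ifitm6 (right) in CPM on a log axis (y) in S100a8-gated cells divided by Ngp and Csf1r-gated cells divided by C1qa and H2-Aa (x), for the cKIT+ library (circles) and the cKIT- library (squares), with exact Poisson intervals at 95%. Classes with under 10 cells are left out. Ifitm6 goes from 36.8 to 1247 CPM with Ngp in cKIT+ cells, and both genes are lowest with C1qa among the Csf1r-gated cells.

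Other lineages were found mainly in the cKIT+ library, gated on Elane at 2000 CPM, Prg2 at 1000 CPM, Hba-a1 at 5000 CPM, Cd79a at 200 CPM and Gzmb. Cells gated on Gzmb at 500 CPM had the highest Ifitm1 of the cKIT+ classes, at 3418 CPM (3345 to 3492) in 284 cells, or 2.10 times (2.05 to 2.15) the level of the Mcpt8 gate. Their Ifitm2 was at 777 CPM, Ifitm3 at 65.6 CPM and Ifitm6 at 3.28 CPM. Gzmb, which encodes granzyme B, came with Gata2 at 905 CPM, Ms4a2 at 421 CPM, the mast cell chymase Cma1 at 296 CPM and Kit at 191 CPM, but just 3 of 6 mast cell markers were on, and the cells are named here by their gate. Elane-gated cells (450 cells) had Ifitm1 at 34.4 CPM and Ifitm2 at 587 CPM, so that Ifitm2 made up 87.2% of their family UMIs. Prg2-gated cells (226 cells, Prg2 being an eosinophil granule gene) had Ifitm1 at 380 CPM and Ifitm2 at 519 CPM.

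Erythroid and B cells were low in the family. Hba-a1-gated cells (54 cKIT+ cells, Hba-a1 being an alpha globin gene) had Ifitm1 at 135 CPM, Ifitm2 at 75.9 CPM, Ifitm3 at 44.9 CPM and 1 UMI of Ifitm6. Cd79a-gated cells (Cd79a being part of the B cell receptor) differed between the sorts. Ifitm2 was at 242 CPM (199 to 292) over 65 cKIT+ cells, against 12.9 CPM (5.89 to 24.4) over 224 cKIT- cells. Ifitm1 was at 103 CPM and 60.1 CPM in the cKIT+ and cKIT- cells, from 46 and 42 UMIs, and was the highest member in the latter. With 2000 UMIs drawn from each cell, 2 of 216 cKIT- cells held an Ifitm1 UMI. Ifitm3 was at 71.7 CPM and 2.86 CPM, the latter from 2 UMIs. Ifitm6 had 0 UMIs in both, which allows up to 6.72 and 4.29 CPM. All 5 of 5 B cell markers were on in both sorts, but Ms4a1, which encodes CD20, was at 213 CPM and 1460.2 CPM, and H2-Aa at 421 CPM and 3784 CPM, so the cells of the 2 sorts were not of 1 kind. The erythroid markers summed to 693 CPM in the cKIT+ and 70.1 CPM in the cKIT- cells of this gate, and the part of other cells' RNA in the difference was not tested.

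The genes around the family gave the interferon setting. The list of interferon-stimulated genes held 62 genes, of which Mx2 was not among the features. Its most abundant members were Ly6e (1374 CPM in the cKIT+ and 1696 CPM in the cKIT- library), B2m (842 CPM and 845 CPM) and Psmb8 (349 CPM and 279 CPM), genes that many cells also express without added interferon. Between the sorts 10 of the 62 reached 50 CPM, and 2 of these were past 2-fold, a share near the 17.6% of all genes. Slfn2 was 4.06 times higher in the cKIT- library and Ifi204 was 2.00 times lower. In the Mcpt8 gate the same pair was past 2-fold of 9 tested, against 11.7% of all genes, with Slfn2 10.2 times higher and Ifi204 2.27 times lower.

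A core of 15 of these genes, those with low levels in resting cells such as Isg15, Ifit1, Ifit3 and Rsad2, was low in both sorts. Its 15 genes together summed to 35.2 CPM (34.0 to 36.4) in the cKIT+ and 47.9 CPM (45.1 to 50.8) in the cKIT- library, and none reached 50 CPM in either. In Mcpt8-gated cells the sum was 28.2 CPM and 40.1 CPM, in S100a8-gated cells 32.6 CPM and 47.8 CPM. Csf1r-gated cells had 196 CPM and 131 CPM. Ifitm1 and Ifitm2 were at 823 to 2084 CPM in the sorts, and Ly6e, on the wider interferon-stimulated list, at 1374 CPM and 1696 CPM. The core genes were taken as low in resting cells, and what sets the level of each gene was not tested. Hba-a1-gated cKIT+ cells had the highest core sum of the gated classes, 873 CPM, but most of it came from Rsad2. Rsad2 held 204 of the 253 core UMIs (704 CPM) and Isg15 held 42 (145 CPM). Ifit1, Ifit3, Ifit3b, Oasl2, Usp18, Rtp4, Irf7, Mx1, Zbp1 and Ifi44 had 0 UMIs there. The sum therefore does not stand for the core as a whole in these cells, whose Ifitm3 was at 44.9 CPM.

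In Csf1r-gated cells, where Ifitm3 was highest, 15 of 22 tested interferon-stimulated genes were past 2-fold higher than in Mcpt8-gated cKIT+ cells and 0 were lower. Of all 3719 genes, 957 were higher and 668 lower, or 43.7% in either direction. Their median log2 ratio was 1.40, against -0.03 over all genes tested. Ifi27l2a was at 483 CPM against 2.54 CPM and Samhd1, a nucleotide hydrolase that restricts viruses, at 272 CPM against 23.3 CPM. In the cKIT- library 9 of 17 were higher and 0 lower, with a median log2 ratio of 1.13 against 0.16 over all genes. Of all 3797 genes there, 887 were higher and 629 lower, or 39.9% in either direction. Of the receptors and signalling genes, 7 of 9 tested were higher and 1 lower in each library, beside the same 43.7% and 39.9% of all genes. A gene was tested if it reached 50 CPM in either gate, so one that did so in the Csf1r gate alone could only be higher there. The counts and medians of these lists are in part set by this filter. Between the sorts in the Mcpt8 gate, 9 interferon-stimulated genes and 3 receptor and signalling genes were tested. Within the cKIT+ library, Csf1r-gated cells had Ifngr1 at 506 CPM against 98.5 CPM in Mcpt8-gated cells, and Ifnar2 at 175 CPM against 27.5 CPM. Jak2 was lower in the Csf1r-gated cells, at 18.9 CPM against 80.3 CPM. Between the sorts 3 of the 12 receptor and signalling genes were tested, and Jak2 was 2.41 times higher and Ifngr1 3.19 times lower in the cKIT- library, while in the Mcpt8 gate 0 of 3 were past 2-fold, against 17.6% and 11.7% of all genes. In S100a8-gated cKIT+ cells, 2 of 10 tested interferon-stimulated genes were higher (Slfn2 and Samhd1) and 3 were lower (Ly6e, Ifi204 and Bst2), against 26.7% of all genes, and in the cKIT- library 4 of 11 were higher and 3 lower, near the 65.7% of all genes past 2-fold there.

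Of the 4 repressors of interferon signalling, Irf2 was the one with 50 CPM or more in the sorts, at 51.9 CPM and 75.04 CPM, and Socs1, Usp18 and Socs3 reached at most 7.39 CPM. A list of 5 genes tied to the handling of IFITM proteins held Zdhhc20, which attaches palmitate to them, Zmpste24 and Vapa, which bind them, and the tetraspanins Cd9 and Cd81. Between the sorts 4 of the 5 were tested, with 17.6% of all genes past 2-fold, and Cd9 was 3.98 times higher in the cKIT- library. In the Mcpt8 gate Cd9 was 3.12 times higher, while Vapa and Cd81 were within 2-fold.

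A few Mcpt8-gated cells carried the interferon core. They were picked, after values had been seen, as cells with at least 3 UMIs and 1000 CPM of the 15 core genes, of which no Ifitm gene is one. There were 5 such cells among 3506 cKIT+ cells (0.143%) and 8 among 2659 cKIT- cells (0.301%). The 5 cells held 3, 4, 24, 8 and 0 Ifitm3 UMIs, and the 8 cells held 5, 4, 31, 4, 1, 12, 1 and 10. Their totals ran from 1296 to 12626 UMIs. Mcpt8-gated cells without any core UMI numbered 2513 and 2155, or 71.7% and 81.0% of the gate. The remaining gated cells held core UMIs below the limits and are in neither group of the ratios below. Of the cells without core UMIs, 59.1% and 47.5% held an Ifitm3 UMI, and the highest counts were 35 and 8.

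Ifitm3 in these cells was at 1827 CPM (1299 to 2497) and 1973 CPM (1532 to 2501), against 93.9 CPM and 120 CPM in cells without core UMIs, ratios of 19.5 (13.8 to 26.7) and 16.5 (12.7 to 21.01). One cell of each library held a large part of it, 24 of 39 and 31 of 68 UMIs. Without that cell the ratios were 8.63 (4.82 to 14.2) and 10.0 (7.03 to 13.9). Against cells of under 5000 UMIs without core UMIs, which are closer in depth, they were 22.0 and 11.8 with the cell and 9.77 and 7.14 without it. Bst2, which encodes tetherin, had ratios of 7.98 and 27.0 in the same cells.

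The other members differed from each other in these cells. Ifitm2 had ratios of 0.966 (0.590 to 1.49) and 0.704 (0.455 to 1.04), and 1.59 (0.958 to 2.49) and 0.719 (0.464 to 1.06) against the shallow cells, with 1 inside all 4 intervals. Ifitm1 had ratios of 5.06 and 1.92 against all cells without core UMIs, and 3.97 (3.37 to 4.66) and 0.895 (0.747 to 1.06) against the shallow ones, so its cKIT+ ratios lay above 1 in both comparisons. In the cKIT+ library 95 of its 173 UMIs were in 1 cell. Ifitm6 had 1 UMI in the 5 cells and 0 in the 8, too few to compare, with a cKIT+ ratio interval of 0.570 to 131. The promoter windows printed above held 2 ISRE matches for Ifitm3, 1 for Ifitm2 and 0 for Ifitm1 and Ifitm6. Whether these matches bear on the ratios was not tested. The cells picked were shallower, with medians of 2405 and 3701.5 against 13286 and 5546 in those without core UMIs, and whether they include doublets with another cell type was not tested.

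**Figure D5:**
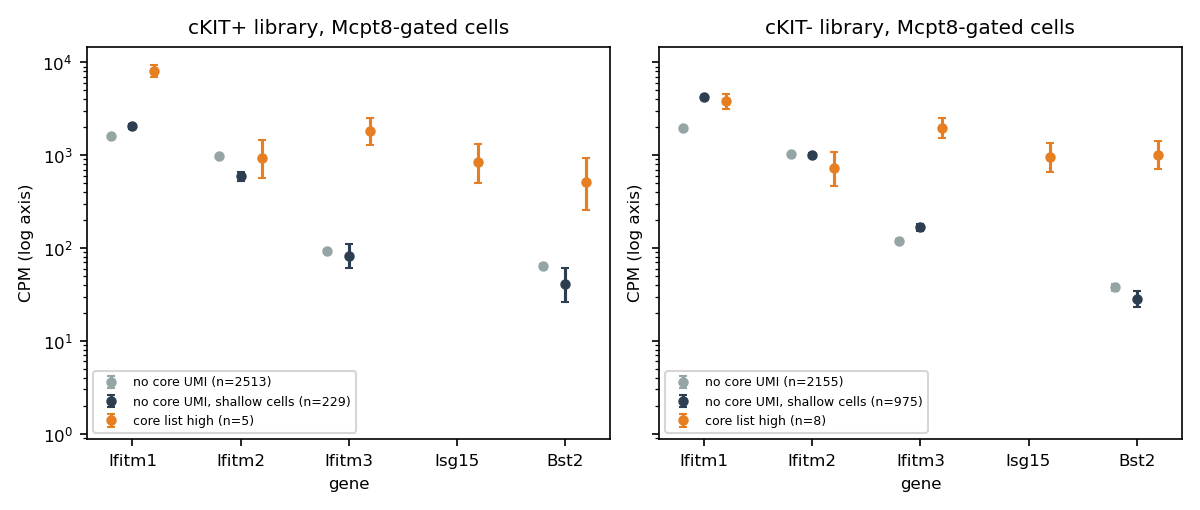
Level in CPM on a log axis (y) of Ifitm1, Ifitm2, Ifitm3, Isg15 and Bst2 (x) in Mcpt8-gated cells of each library (panels), for cells without core UMIs, such cells with under 5000 UMIs, and cells high in the core list, with exact Poisson intervals at 95% for counting error. Isg15 is one of the core genes by which cells were picked and has no point in the other groups, where it is at 0. Ifitm3 stands at 1827 and 1973 CPM in the picked cells against 82.9 to 168 CPM in the others, while the intervals of Ifitm2 in the picked cells overlap those of both other groups.

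The genes most like each member were sought over 11 gated classes of at least 50 cells (both libraries), among 5498 genes, by the Pearson correlation of log2(CPM + 1). These values are descriptions, and the classes share libraries and free RNA. Ifitm1 was most like Gata2 (r = 0.978), a transcription factor of basophils and mast cells, followed by Gna14 (0.961), Csrp3 (0.958), Rab27b (0.954) and Cyp11a1 (0.942). Ifitm2 was most like Adgrg3 (0.964), Tmem205 (0.925), Gng12 (0.921), Iqgap2 (0.913) and Atp8b4 (0.907). For Ifitm3 the values were lower, with Ptafr (0.854), Lyz2 (0.853), Tnfrsf21 (0.846), Sec14l1 (0.843) and Cd300ld (0.841). Ifitm6 was most like 9830107B12Rik (0.979), Cd177 (0.977), 6430548M08Rik (0.976), Mmp9 (0.976) and Pilra (0.971), of which Cd177 and Mmp9 are neutrophil genes. The others are named by rank alone. Between the members r ran from -0.28 (Ifitm1 with Ifitm6) to 0.733 (Ifitm3 with Ifitm6). The pairs whose transcripts share windows had r of 0.671 (Ifitm2 with Ifitm3) and 0.011 (Ifitm1 with Ifitm3). The part of shared reads in these values was not tested.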

How the data were processed

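Bone marrow cells of 2 sorts were sequenced by the authors as 1 10x library each. The authors mapped the reads to mm10 with Cell Ranger 3.0.2 and the deposited files hold UMI counts that were not normalized. The kit is version 3 in the methods and version 2 in the labels.

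The study's filter (genes in at least 40 cells, 1% tails of cells) kept 10141 of 10377 cells. Total UMIs per library are given in the report, and the number of UMIs behind a value sets its precision. Counts were summed per library and class and scaled to CPM. Cells were gated by fixed marker limits in place of clusters, and the members, lists and gates were chosen with earlier results of these data known. Genes were named as members, other Ifitm genes, gate markers, the 5 most like genes, or by list. Genes were called at 2-fold or more among those with at least 50 CPM in 1 group. With 1 library per sort there is no test. Intervals were made with SciPy 1.17.1, and edgeR 4.0.16 gave TMM factors only. Alternatives covered the cell filter, scaling, depth, gates, UMI minimums, cells with most UMIs, and shared barcodes. No sequences of the encoded proteins were used here. Other assays of the study were not analysed here.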

Additional observations from a re-analysis of the deposited data

How the results depend on the processing

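No paired analysis was possible because each sort was 1 library, so the replicate numbers pair nothing and no library could be left out. Of 182 values computed under an alternative, 75 moved by less than their counting interval or stayed within 1.5 times the count, 107 moved and none of the values past 2-fold changed direction. The Ifitm3 ratio of the S100a8 over the Mcpt8 gate fell below 2-fold per cell and with lower gate thresholds, and the Ifitm2 ratio of the same gates in the cKIT- library did so under TMM, while the Ifitm1 and Ifitm6 sort ratios over all cells and the Ifitm2 ratio of the Csf1r over the Mcpt8 gate passed 2-fold under at least 1 alternative. The cause of the changes was not tested. The direction of the sort ratios of Ifitm1, Ifitm2 and Ifitm3 was above 1 in CPM and below 1 in UMIs per cell, in all cells and in the whole Mcpt8 gate. UMIs per cell are not scaled to depth, and the median cell held 4416.5 UMIs in the cKIT- and 13039 in the cKIT+ library. Inside the Mcpt8 gate the Ifitm1 CPM ratio was below 1, at 0.806, in Prss34-high cycling cells. Leaving out the 10 barcodes found in both libraries, an alternative added after seeing the data, moved none of the 8 sort ratios beyond their intervals. Values below are for the cKIT+ library where 1 library is meant.

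Counted as UMIs per cell, the ratios that moved were as follows, for the sorts over all cells 0.683 (Ifitm1), 0.522 (Ifitm2), 0.625 (Ifitm3) and 0.247 (Ifitm6), and for the sorts in the Mcpt8 gate 0.587 (Ifitm1), 0.534 (Ifitm2), 0.652 (Ifitm3) and 0.402 (Ifitm6), and for the S100a8 gate over the Mcpt8 gate 0.344 (Ifitm2) and 1.91 (Ifitm3), and for the Csf1r gate over the Mcpt8 gate 0.0168 (Ifitm1), 0.240 (Ifitm2), 4.96 (Ifitm3) and 31.9 (Ifitm6). As the mean of the CPM of each cell, they were as follows, for the sorts over all cells 2.02 (Ifitm1), 1.15 (Ifitm2), 1.15 (Ifitm3) and 0.326 (Ifitm6), and for the sorts in the Mcpt8 gate 1.53 (Ifitm1) and 1.49 (Ifitm3), and for the S100a8 gate over the Mcpt8 gate 0.0571 (Ifitm1), 0.417 (Ifitm2), 3.32 (Ifitm3) and 659 (Ifitm6), and for the Csf1r gate over the Mcpt8 gate 13.4 (Ifitm3). After thinning to 2000 UMIs per cell, they were as follows, for the sorts over all cells 1.91 (Ifitm1), 1.13 (Ifitm2), 1.18 (Ifitm3) and 0.340 (Ifitm6), and for the sorts in the Mcpt8 gate 1.49 (Ifitm1) and 1.51 (Ifitm3), and for the S100a8 gate over the Mcpt8 gate 0.0486 (Ifitm1), 2.85 (Ifitm3) and 957 (Ifitm6), and for the Csf1r gate over the Mcpt8 gate 14.6 (Ifitm3) and 111 (Ifitm6). Under TMM scaling, they were as follows, for the sorts over all cells 1.502 (Ifitm1) and 1.15 (Ifitm2), and for the S100a8 gate over the Mcpt8 gate 0.0933 (Ifitm1), 0.485 (Ifitm2), 2.69 (Ifitm3) and 582 (Ifitm6), and for the Csf1r gate over the Mcpt8 gate 0.467 (Ifitm2) and 9.65 (Ifitm3). In the cKIT- library, where TMM was added after seeing the data, they were 0.0838 (Ifitm1), 0.766 (Ifitm2), 6.80 (Ifitm3) and 2341 (Ifitm6) for the S100a8 gate over the Mcpt8 gate, and 0.695 (Ifitm2) and 17.6 (Ifitm3) for the Csf1r gate over the Mcpt8 gate. Without the 10% of cells with most UMIs, they were as follows, for the sorts over all cells 1.58 (Ifitm1) and 1.15 (Ifitm2), and for the sorts in the Mcpt8 gate 1.27 (Ifitm1) and 1.38 (Ifitm3), and for the S100a8 gate over the Mcpt8 gate 0.0403 (Ifitm1), 0.334 (Ifitm2) and 2.41 (Ifitm3), and for the Csf1r gate over the Mcpt8 gate 13.5 (Ifitm3). With gate thresholds at 0.5 times their value, they were as follows, for the sorts in the Mcpt8 gate 1.28 (Ifitm1), and for the S100a8 gate over the Mcpt8 gate 0.0478 (Ifitm1), 0.399 (Ifitm2) and 1.77 (Ifitm3), and for the Csf1r gate over the Mcpt8 gate 0.0612 (Ifitm1), 7.72 (Ifitm3) and 46.0 (Ifitm6). With gate thresholds doubled, they were as follows, for the sorts in the Mcpt8 gate 1.05 (Ifitm1), and for the S100a8 gate over the Mcpt8 gate 0.0972 (Ifitm1). With all deposited barcodes, they were as follows, for the sorts in the Mcpt8 gate 1.15 (Ifitm1), and for the S100a8 gate over the Mcpt8 gate 0.0765 (Ifitm1). With the Fc epsilon receptor cells added to the Mcpt8 gate, which was chosen after seeing the data, they were as follows, for the sorts in the Mcpt8 gate 1.30 (Ifitm1) and 1.21 (Ifitm3).

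The number of genes past 2-fold with a minimum of 10 CPM, of 200 CPM, and of 10 UMIs with no CPM minimum, was 1313, 173 and 4175 between the sorts (reported with 569), 897, 118 and 2843 between the sorts in the Mcpt8 gate (reported with 368), 2003, 252 and 4891 between the S100a8 and Mcpt8 gates (reported with 803) and 3679, 422 and 6734 between the Csf1r and Mcpt8 gates (reported with 1625). The share of Mcpt8-gated cells with at least 3 UMIs, with 1 after thinning to 2000 UMIs and with 1 after thinning to 1000 UMIs was 83.4%, 75.6% and 61.5% (Ifitm1, cKIT+), 92.7%, 82.8% and 60.1% (Ifitm2, cKIT+), 19.3%, 15.9% and 9.20% (Ifitm3, cKIT+), 0.0285%, 0.323% and 0.289% (Ifitm6, cKIT+), 72.4%, 72.9% and 62.4% (Ifitm1, cKIT-), 77.6%, 81.2% and 60.8% (Ifitm2, cKIT-), 10.1%, 22.2% and 12.7% (Ifitm3, cKIT-) and 0%, 0.308% and 0.113% (Ifitm6, cKIT-). Depth limits the low genes most, since the median cKIT- cell held 4416.5 UMIs, and several classes of the cKIT- library rest on 10 to 62 cells.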
